A study of Mus musculus with 4 samples.

Results

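This account covers 10 forkhead transcription factor genes of mouse palatal mesenchyme: Foxf1, Foxf2, Foxc1, Foxc2, Foxd1, Foxd2, Foxl1, Foxl2, Foxq1 and Foxp2. The genes were named as forkhead genes downstream of hedgehog signalling, and the files hold no measure of hedgehog response, so that part of the name was not checked. Accessible chromatin was mapped with ATAC-seq, where a transposase cuts open DNA, and each library has 1 peak list. Peaks of the 4 lists that shared at least 1 bp were merged into regions, and a region was given to the nearest protein-coding gene within 100 kb. By this rule 38 of 39843 regions belonged to the 10 genes, and Foxc2 had none.

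The mutant group (2 libraries) had the genotype Shox2Cre/-;Nkx2.5F/F;R26RmTmG, and the control group (2 libraries) Shox2Cre/+;Nkx2.5F/F;R26RmTmG. Green fluorescent cells of the palatal mesenchyme were sorted from embryos at E14.5, with pools of 50000 cells per group. Cre was expressed from the Shox2 locus, so the sorted cells are those in which Shox2 had been active, and the R26RmTmG reporter turns green once Cre has acted. Mutants had no intact Shox2 allele and controls had 1, and both carried a homozygous floxed allele of Nkx2-5, which Cre can cut. Pools of cells cannot tell fewer open cells from less accessibility per cell. The labels do not say that the 2 libraries of a genotype came from separate embryos, so differences between them may be technical.

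Forkhead proteins bind DNA through a winged-helix domain, and many are named by subfamily letters that mark related sequences. In the palate, Shh is made by the oral epithelium and acts on the mesenchyme below through the receptor Ptch1, the transducer Smo and the Gli factors. Foxf1 and Foxf2 are among the mesenchymal genes that depend on this signal in mice, and loss of Foxf2 or of Foxc2 in mice causes cleft palate. Several of these genes lie side by side in the genome, in paralogous groups that descend from an ancestral cluster.

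The lists held 29217 and 31821 peaks in the mutants and 30225 and 22959 in the controls on chromosomes 1 to 19 and X. Control 2 was the shortest list and stood apart from the other libraries. Whether its length is the reason was not tested. The largest mean differences at forkhead regions are also given without it. Of 5510 regions present in exactly 3 libraries, 60.7% were those that control 2 lacked. Peak strength is given as a percentile: the rank of the deposited score of a peak within its own library, where 100 is the strongest. The score was 10 times the −log10 p of the peak. A shorter list can shift percentiles by its length alone, so ranks among the shared regions only, where the lists have equal length, are given as well. Among the 18904 regions with a peak in all 4 libraries, the median percentile was 67.6 and 70.2 in the mutants, against 68.7 and 58.8 in the controls. With 2 libraries against 2, an exact permutation test cannot give a p under 0.33, so no test is given and differences are described.

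The sort was checked against marker genes, whose regions show open chromatin and not expression. Palatal mesenchyme markers had regions at 10 of 10 genes, and 4 of them had a promoter region in all 4 libraries. Summed over these genes, 22 and 26 regions were called in the mutants, against 26 and 19 in the controls. Of their 37 regions, 2 had a peak in both controls and in no mutant (5.41%, against 1.07% of all regions). The reverse was listed at 1 (2.70%, against 4.47% of all regions). Epithelial markers also had regions, at 6 of 7 genes, with 18 and 19 called in the mutants, against 18 and 11 in the controls, and Krt14 had none. Endothelial markers had 14 and 10 regions in the mutants, against 15 and 8 in the controls, at 5 of 6 genes, and Tie1 had none. Blood markers had 6 and 7 in the mutants, against 6 and 4 in the controls, at 2 of 4 genes, and Gata1 and Cd68 had none. Neuron markers had 4 and 5 in the mutants, against 6 and 5 in the controls, at 3 of 4 genes, and Elavl3 had none. Skeletal muscle markers were nearly empty, with 1 and 1 region in the mutants, against 1 and 0 in the controls, and Myog and Pax7 had none. A promoter region in all 4 libraries was also found at 3 of 7 epithelial and 2 of 4 neuron markers. Of endothelial markers 1 of 6 had one, of blood markers 1 of 4 and of skeletal muscle markers 0 of 4. By shared promoters the mesenchyme markers were thus not set apart from epithelial and neuron markers. The part of other cell types in the values below was not tested.

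Forkhead regions were called about as often as regions elsewhere. The mutants held 26 and 25 of the 38 regions, and the controls 28 and 21. Per 10000 listed peaks this was 8.90 and 7.86 in the mutants, against 9.26 and 9.15 in the controls. All 4 libraries held 16 of the 38 regions (42.1%), against 47.4% of all regions. Another 4 regions were held by 3 libraries, 6 by 2 and 12 by 1. A peak in both mutants and in no control was listed at 2 regions (5.26%), near Foxd2 and Foxd1, where the share over all regions was 4.47%. The reverse pattern was listed at 1 region (2.63%), inside Foxp2, where the share over all regions was 1.07%. Each of these shares is close to its background or rests on 1 or 2 regions, and with an equal number of peaks from every list both counts were 0.

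**Figure D1:**
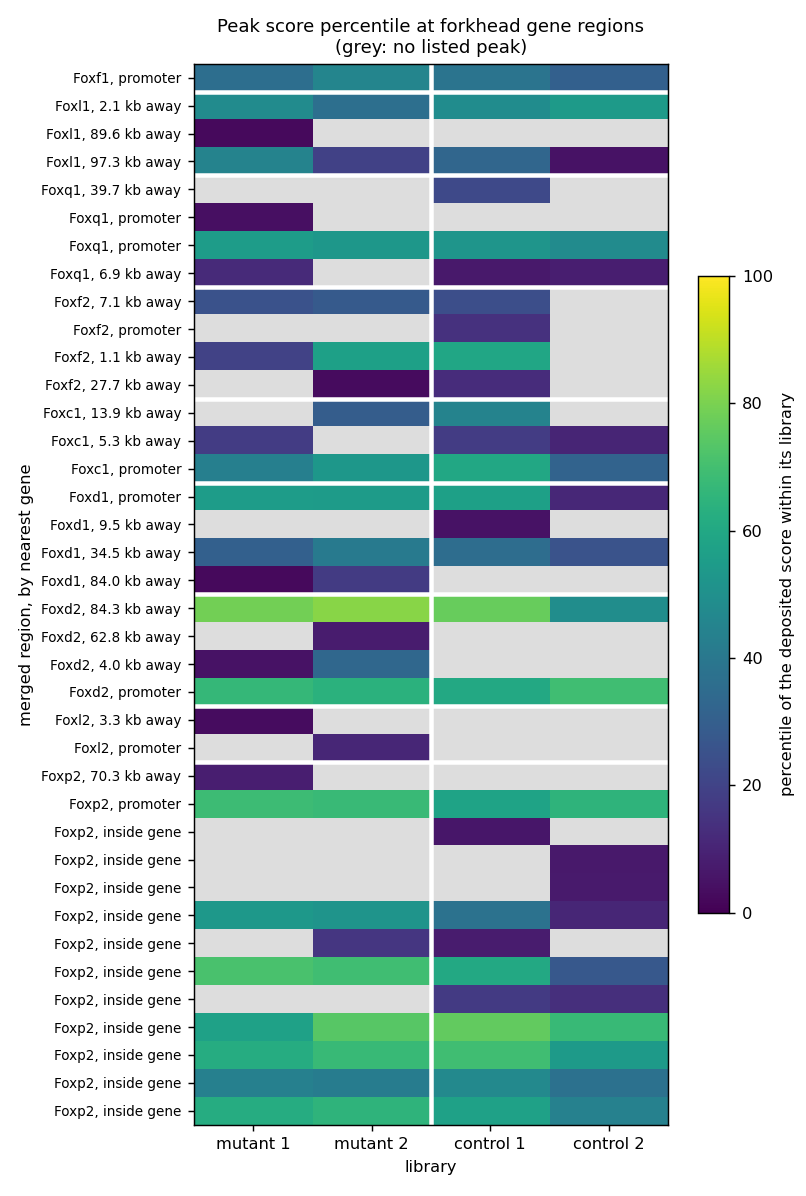
Score percentile (colour, 0 to 100) of each of the 38 forkhead regions (rows, grouped by nearest gene) in each library (columns, mutants left of controls), with grey where no peak was listed. The 16 rows filled across all columns are mostly promoters and regions inside Foxp2, and control 2 has no peak in any of the 4 Foxf2 rows.

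A missing peak was not shown to be closed chromatin. The deposited peak names carry running numbers with gaps, so peaks were removed after numbering by a step the sources used here do not give. In the 38 regions there were 52 absences of a library, and in 52 of 52 at least 1 numbered peak had been removed between the listed neighbours on either side. Those gaps had a median length of 153 kb and a median of 8 removed peaks, so this does not say that a removed peak lay in the region itself.

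On chromosome 8, Foxf1, Foxc2 and Foxl1 lie within 46.3 kb, with Mthfsd, a gene of another family, between Foxf1 and Foxc2. Foxf1 (gene 121084386 to 121088154), a hedgehog-dependent mesenchymal factor, had a single region at 121083103 to 121084837. The region covered the lower-coordinate end of Foxf1 and reached the higher-coordinate end of the long noncoding RNA gene Fendrr. Its percentiles were 36.3 and 45.3 in the mutants, against 38.6 and 30.8 in the controls. The groups overlapped there. The authors' fold enrichment was 4.0 and 4.44 in the mutants, against 4.16 and 4.35 in the controls.

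Foxc2 (121116171 to 121118895), which acts in skeletal and lymphatic development, had no region in any library. The stretch around it without a listed peak was 16.4 and 16.4 kb long in the mutants, against 16.5 and 16.5 kb in the controls. In that stretch 4 and 3 numbered peaks had been removed from the mutant lists, against 2 and 2 from the control lists. Both flanks of the stretch were open in all 4 libraries. The flank nearer Foxf1 was a region at the higher-coordinate end of Mthfsd, 121107738 to 121108773 and 7.4 kb from Foxc2. Its percentiles were 49.4 and 62.1 in the mutants, against 46.9 and 29.0 in the controls. It is not one of the 38 regions, because Mthfsd is nearer.

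The other flank belonged to Foxl1 (121127685 to 121130644), a factor of gut mesenchyme. This region, 121125124 to 121126096, lay 2.08 kb from the gene, and its percentiles were 48.2 and 36.5 in the mutants, against 48.5 and 54.6 in the controls. It is the only one of the 16 shared forkhead regions with both mutants below both controls by percentile, a pattern found at 5.62% of all shared regions. The gap between mutant 1 and control 1 was small, and by rank among shared regions the groups overlapped. The mean difference of this region was −9.19, and −6.17 without control 2, where 17.3% of the shared regions were lower. Its fold enrichment was 5.46 and 4.65 in the mutants, against 5.70 and 7.0 in the controls. Foxl1 also had a region 97.3 kb away (121227590 to 121228370), with percentiles of 44.7 and 19.4 in the mutants, against 33.1 and 4.82 in the controls. The groups overlapped there, and the mean difference of 13.1 became −0.986 without control 2. Another region, 89.6 kb away, was called in mutant 1 alone, at percentile 2.37.

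**Figure D2:**
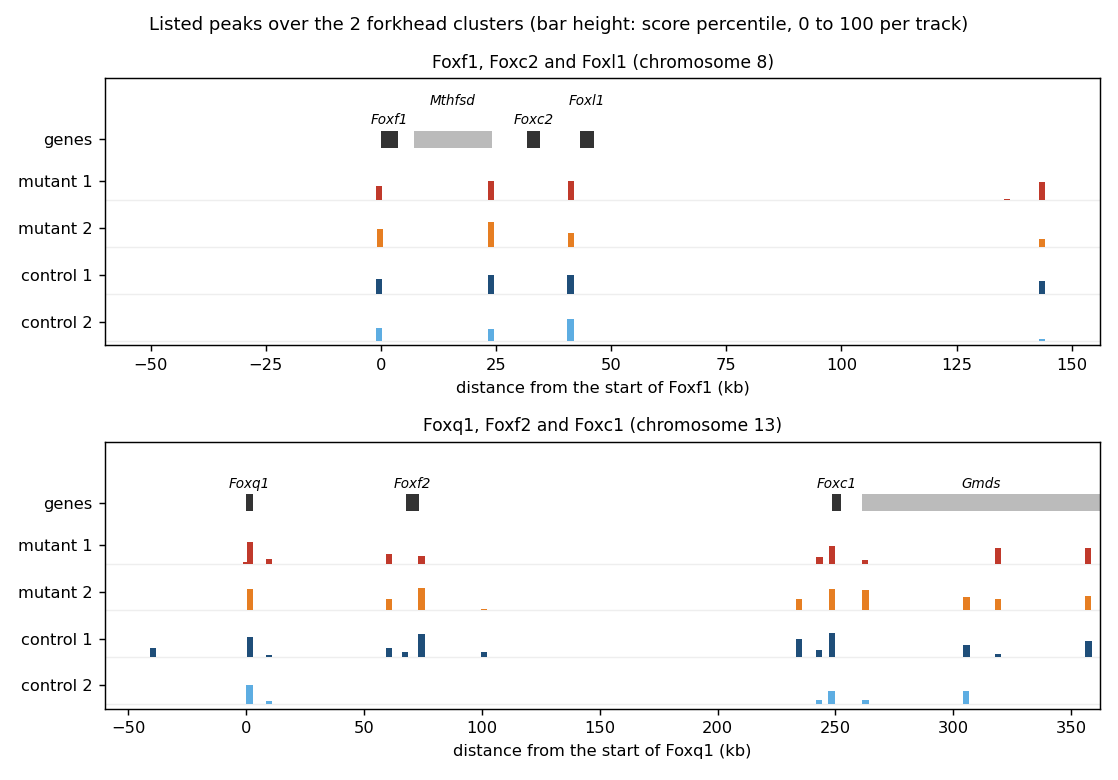
Listed peaks of each library (4 tracks per panel, mutants above controls) over the 2 forkhead clusters, with distance in kb from the start of the first gene on the horizontal axis and bar height giving the score percentile, 0 to 100 within each track. Foxc2 lies between 2 peaks that all libraries share and has none of its own, and the stretch around Foxf2 is empty in control 2.

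On chromosome 13, Foxq1, Foxf2 and Foxc1 spread over 252 kb and had 11 regions, of which 7 and 6 were called in the mutants, against 10 and 4 in the controls. Only 2 of these 11 were held by all 4 libraries, and both lay at a promoter. Here a promoter region is one that overlaps the 1 kb on either side of the gene start, or of either gene end where the tables used give no strand. Foxq1 (31558170 to 31560976), which controls hair structure in mice, had its shared region inside the gene, at 31558973 to 31560342. Percentiles were 55.2 and 53.0 in the mutants, against 52.1 and 48.3 in the controls. Both mutants were above both controls, but mutant 2 and control 1 were close, and by rank among shared regions the groups overlapped. A second promoter region 11 bp from the gene was called in mutant 1 alone, at percentile 4.06. A distal region 6.90 kb away was called in mutant 1, at percentile 11.9, and in both controls, at 6.80 and 8.36. The fourth, 39.7 kb away, was called in control 1 alone, at percentile 22.1.

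Foxf2 (31625816 to 31631406), the paralogue of Foxf1 and a factor that palate growth in mice requires, had 4 regions and none that all libraries shared. The mutants held 2 and 3 of them, and the controls 4 and 0. The region over its start, 31625268 to 31626046, was called in control 1 alone, at percentile 14.4. Just beyond the other end of the gene, the region at 31632196 to 31632898 had percentiles of 19.9 and 57.0 in the mutants, and 59.3 in control 1. This was the strongest Foxf2 peak in mutant 2 and control 1, with fold enrichments of 5.75 and 5.70, and the mutants differed more from each other than mutant 2 did from control 1. A region 7.07 kb from the gene (31618240 to 31619255) had percentiles of 25.1 and 28.2 in the mutants, and 24.2 in control 1. The last, 27.7 kb away, was called in mutant 2 at percentile 2.98 and in control 1 at 12.7. Control 2 had no listed peak for 233 kb around the gene, and 11 numbered peaks had been removed from its list over that stretch. No difference between genotypes can be read at Foxf2, since the 2 controls differ from each other more than either differs from the mutants in the number of calls.

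Foxc1 (31806646 to 31810635), a regulator of skull, eye and skeletal mesenchyme, had 3 regions. Its promoter region, 31806153 to 31807478, was held by all 4 libraries, with percentiles of 43.2 and 52.9 in the mutants, against 60.1 and 31.9 in the controls. The groups overlapped, and the controls enclosed the mutants. The mean difference of 2.03 became −12.1 without control 2, with both mutants below control 1, and 6.92% of the shared regions were lower. A region 5.30 kb away was called in mutant 1 at percentile 17.6 and in the controls at 17.9 and 10.5. A region 13.9 kb away was called in mutant 2 at 29.4 and in control 1 at 44.9.

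The sequences of the Foxc1 and Foxf2 promoters, the one called in every library and the other in 1, are shown for comparison. Both are the 250 bases before the gene start, 5′ to 3′ on the plus strand, from RefSeq (GRCm38.p6, the build also known as mm10): chr13:31806396-31806645 for Foxc1 and chr13:31625566-31625815 for Foxf2. Capitals mark the stretch between the outermost peak summits of the libraries that called the region, with 10 bases on either side.
Foxc1: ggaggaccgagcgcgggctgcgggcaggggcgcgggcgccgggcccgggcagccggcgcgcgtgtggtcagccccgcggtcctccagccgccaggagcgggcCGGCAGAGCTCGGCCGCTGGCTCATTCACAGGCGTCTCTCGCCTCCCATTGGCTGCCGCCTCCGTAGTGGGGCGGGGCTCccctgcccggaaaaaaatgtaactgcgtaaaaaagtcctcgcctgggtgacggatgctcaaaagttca
Foxf2: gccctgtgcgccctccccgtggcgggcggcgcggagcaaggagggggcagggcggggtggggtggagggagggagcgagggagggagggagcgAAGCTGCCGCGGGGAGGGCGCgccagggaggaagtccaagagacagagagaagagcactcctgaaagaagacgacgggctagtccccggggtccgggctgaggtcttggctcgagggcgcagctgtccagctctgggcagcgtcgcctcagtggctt
The 4 Foxc1 summits fell close together, at 83 and 104 bases before the start in the mutants, against 79 and 138 in the controls. The only Foxf2 summit, that of control 1, fell 147 bases before the start. The 2 promoters were alike in G or C content, with 70.8% for Foxc1 and 71.6% for Foxf2. They held 29 and 21 CpG sites, and 7.74% and 19.7% of promoters held more. Over 21045 promoter entries of protein-coding genes the medians were 55.6% and 10 CpG sites. The window of Foxd1, with 57.2% and 12 CpG sites, was near these medians.

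Foxd1 and Foxd2, close relatives expressed in facial mesenchyme, each had 4 regions, of which 2 were held by all libraries and 1 by the mutants alone. Foxd1 lies on chromosome 13 (98354245 to 98356705), far from the cluster, and its promoter region was the widest of the shared forkhead promoters, at 2018 bp (98353909 to 98355926). Percentiles were 55.2 and 54.7 in the mutants, against 56.7 and 11.3 in the controls. The mutants and control 1 lay close together, and the mean difference of 21.0 between genotypes rests on control 2. Without control 2 it was −1.72. A region 34.5 kb away had percentiles of 30.6 and 40.7 in the mutants, against 35.7 and 25.7 in the controls, which overlap. The mutant-only region, 98440182 to 98441161 and 84.0 kb away, had percentiles of 2.58 and 17.4. A region 9.51 kb away was called in control 1 alone, at percentile 4.79.

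Foxd2 (chromosome 4, 114906280 to 114908898) had a promoter region at 114908287 to 114909527 that also covers the start of the noncoding gene Foxd2os. Its percentiles were 66.6 and 64.0 in the mutants, against 60.5 and 69.4 in the controls, so the controls again enclosed the mutants. It is shown here because the summits of all 4 libraries fall within the 250 bases before the gene start, chr4:114908899-114909148 on the minus strand (RefSeq, GRCm38.p6), with capitals used as above.
Foxd2: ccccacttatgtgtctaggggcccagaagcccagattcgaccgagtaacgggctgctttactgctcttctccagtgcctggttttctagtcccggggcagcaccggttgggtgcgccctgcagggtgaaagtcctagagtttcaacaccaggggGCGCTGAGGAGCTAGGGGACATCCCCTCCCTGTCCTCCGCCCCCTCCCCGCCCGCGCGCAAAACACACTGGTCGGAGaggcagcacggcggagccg
Summits lay 65 and 30 bases before the start in the mutants, against 86 and 68 in the controls. The window held 64.4% G or C and 16 CpG sites.

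The distal forkhead region with the highest mean percentile was 84.3 kb from Foxd2 (114821443 to 114822555), overlapping 3 long noncoding RNA genes. Percentiles were 78.7 and 82.4 in the mutants, against 76.7 and 49.0 in the controls. The mean difference was 17.7, and 3.88 without control 2. Both mutants were above both controls, but control 1 was close to mutant 1 and fold enrichments overlapped, at 8.0 and 8.13 in the mutants, against 8.32 and 5.98 in the controls. The mutant-only region of Foxd2 lay 3.99 kb from the gene (114901991 to 114902581), with percentiles of 4.90 and 33.2. Both control lists have 7 peaks removed from the gap that covers it. A further region 62.8 kb away was called in mutant 2 alone, at percentile 7.42.

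Foxl2 (chromosome 9, 98955607 to 98958126), known for its role in the ovary and eyelid, had the least listed signal of the genes that had any. A promoter region, 98954996 to 98955877, was called in mutant 2 at percentile 10.7, and a region 3.26 kb away in mutant 1 at percentile 3.20. Neither control held a peak. The 2 mutants did not share a region. Its promoter window held 70.8% G or C, the same share as that of Foxc1, and 22 CpG sites, against 29 for Foxc1.

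Foxp2 (chromosome 6, 14901349 to 15441977), best known for its part in human speech and in the developing brain, spans 541 kb and had 13 of the 38 regions, with 8 and 8 called in the mutants, against 10 and 10 in the controls. At least as many regions were assigned to 0.596% of 21631 protein-coding genes. The promoter region, 14900332 to 14902025, had percentiles of 68.5 and 68.0 in the mutants, against 58.1 and 65.0 in the controls. Both mutants were above both controls by percentile, while by rank among shared regions and by fold enrichment the groups overlapped.

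Inside the gene 6 regions were shared by all libraries, and they did not move together. The first, 15242248 to 15243245, had percentiles of 53.2 and 51.9 in the mutants, against 37.8 and 10.9 in the controls, and fold enrichments of 8.37 and 8.41 in the mutants, against 7.10 and 5.81 in the controls. The second, 15263759 to 15264667, had percentiles of 71.5 and 69.4 in the mutants, against 60.5 and 27.6 in the controls, and fold enrichments of 10.1 and 9.65 in the mutants, against 8.93 and 6.59 in the controls. In both the mutants lay together and above both controls, and control 2 lay far below control 1. The mean difference was 28.2 and 26.4 percentile points, larger than at 98.8% and 98.3% of the 18904 shared regions. Without control 2 it was 14.7 and 9.94, larger than at 94.7% and 89.9% of them.

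The sixth region, 15407562 to 15408590, had percentiles of 62.0 and 65.1 in the mutants, against 57.2 and 44.1 in the controls, a mean difference of 12.9. Without control 2 it was 6.36, larger than at 82.9% of the shared regions. Its fold enrichments were close, at 7.89 and 7.91 in the mutants, against 7.51 and 7.37 in the controls. The third region, 15320842 to 15322105, went the other way in the mean, with percentiles of 57.0 and 74.0 in the mutants, against 75.9 and 67.4 in the controls, which overlap. Its mean difference was −6.13, and −10.4 without control 2. Both mutants were then below control 1, and 9.08% of the shared regions were lower. The other two overlapped as well. At 15378064 to 15379849 percentiles were 61.9 and 67.3 in the mutants, against 69.3 and 54.6 in the controls. At 15399003 to 15399863 they were 43.6 and 41.8 in the mutants, against 46.9 and 37.5 in the controls. By rank among shared regions, both mutants were below both controls at the third and at this last one. Without control 2 the mean differences at 15378064 to 15379849 and 15399003 to 15399863 were −4.79 and −4.23.

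The remaining Foxp2 regions were weak. The control-only region (15296245 to 15297240) had percentiles of 16.9 and 13.3 in the controls and no peak in either mutant, where 3 and 4 numbered peaks had been removed from the gap. Of the other 5, 4 were each called in a single library, at percentiles of 6.14 to 8.54, and 1 in mutant 2 at 15.7 and in control 1 at 7.43.

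**Figure D3:**
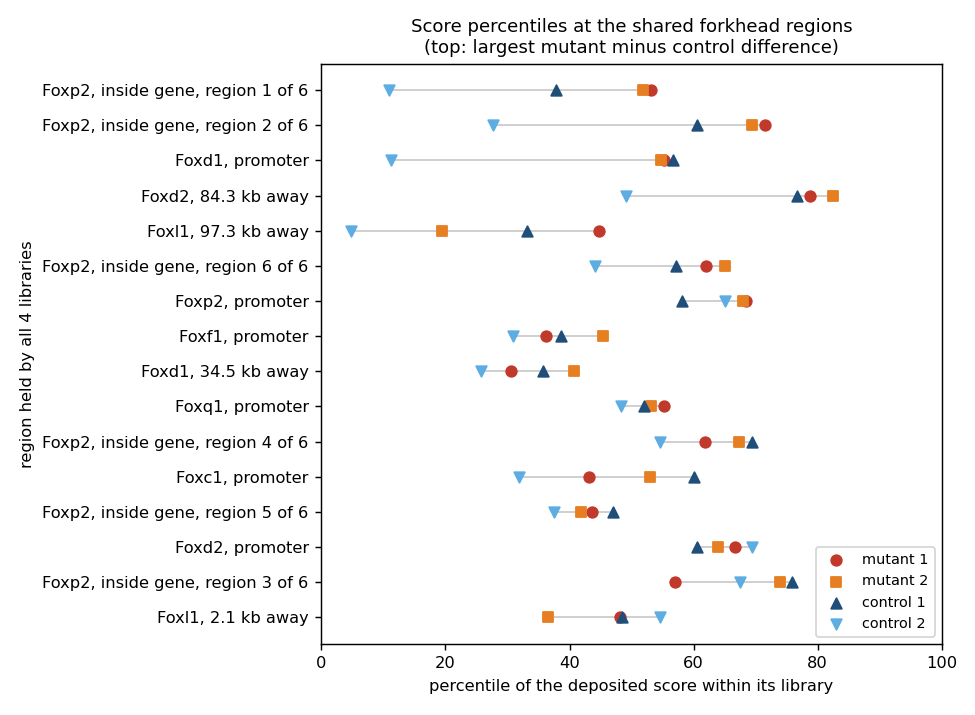
Score percentile (horizontal axis, 0 to 100) of the 16 forkhead regions held by all 4 libraries, 1 point per library and region, ordered by mutant minus control mean difference. At the first and second regions inside Foxp2 both mutants lie to the right of both controls, while at most promoters the symbols of the groups mix, and control 2 is the lowest point in 12 of the 16 rows.

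Across the 16 shared regions, both mutants were above both controls by percentile at 6 and below at 1, and the groups overlapped at 9. Over all shared regions the share above was 29.1%, against 5.62% below, and for the forkhead regions 37.5% against 6.25%. The median mutant minus control difference was 5.51 points, against 3.29 over all shared regions, and the median spread between libraries of a genotype at these regions was 7.45 points (SD, n = 2 per genotype). Control 2 was the lowest of the 4 libraries at 12 of the 16 regions (75%), against 64.7% of all shared regions. Without control 2, both mutants were above control 1 at 7 regions and below it at 6, and control 1 lay between them at 3. The shares over all shared regions were then 33.8% above and 32.5% below. The median difference without control 2 was 1.01, against −0.0306 over all shared regions. Ranked among shared regions alone, both mutants were above at 4 regions and below at 2, and the background shares were 17.6% and 18.0%. The median difference by that rank was −1.86, against −0.0225 over all shared regions.

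By percentile, by rank among shared regions and by fold enrichment at once, both mutants were above both controls at 3 of the 16 regions (18.8%), and all 3 lay inside Foxp2. This order was found at 10.6% of all shared regions, and the reverse at 4.74% and at 0 forkhead regions. The 3 regions kept the order with equal peak numbers from each list. In that setting both mutants were below both controls at 2 other regions, also inside Foxp2. These were 15320842 to 15322105 and 15399003 to 15399863, with mean differences of −13.2 and −10.0. A count of 3 in 16 is near that background, and the 3 regions share a gene.

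Forkhead promoters ranked lower than most promoters of the genome, and forkhead distal regions ranked like other distal regions. Of 9 promoter regions at these genes, 6 were held by all libraries (66.7%), against 84.4% of 12715 promoter regions genome-wide. Of 29 distal regions, 10 were shared (34.5%), against 30.8% of 22087. The 6 shared promoter regions had low percentiles for promoters, with a median of 49.6 over the libraries, against 76.9 for all shared promoter regions. Foxf1 was lowest, above only 5.68% of all shared promoters, then Foxd1 (9.69%), Foxc1 (11.8%), Foxq1 (16.0%), Foxp2 (30.4%) and Foxd2 (30.8%). Fold enrichment had a median of 5.22, against 8.48. Width pointed the other way: the median was 1532 bp, against 1274 bp, and Foxd1, Foxf1 and Foxp2 were wider than 95.4%, 87.4% and 85.7% of shared promoters. The 10 shared distal regions were close to all shared distal regions in percentile (median 52.0, against 51.3) and width (1014 bp, against 1017 bp).

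**Figure D4:**
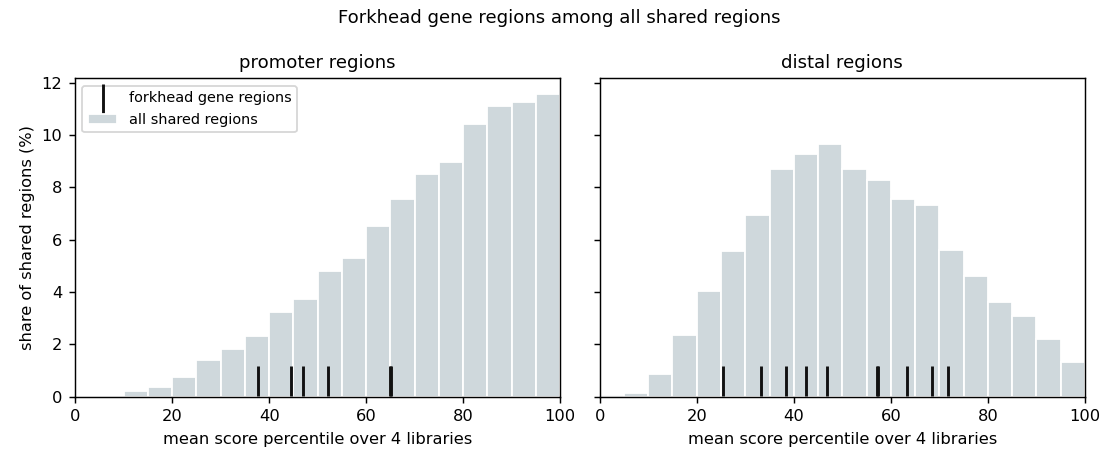
Mean score percentile over the 4 libraries (horizontal axis) for all shared promoter regions (left) and all shared distal regions (right), as the share of regions per bin of 5 points (vertical axis), with black marks for the forkhead gene regions. All 6 forkhead promoters lie between 37.8 and 65.1, below the bulk of promoters, while the 10 distal marks spread over the middle of their distribution.

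Promoter sequence was searched in the 5 genes with an entry in the table used (Foxc1, Foxd1, Foxd2, Foxf2 and Foxl2) for 3 short motifs on both strands. The motifs were ACCACCC, the core bound by Gli factors, GTAAACA, bound by forkhead factors, and TAATTA, bound by many homeodomain factors. Exact matches were found in 0 of the 5 windows for each, and 3.96%, 2.64% and 4.24% of all promoter entries hold one. No letters of these motifs in 250 bases says nothing about binding elsewhere at the loci.

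By the nearest-gene rule the clustered genes had fewer regions each than the single ones. The rule divides the sequence between neighbouring genes, so these counts cannot be read as an effect of clustering. The 6 genes of the 2 clusters had 15 regions, 2.5 per gene, covering 13.7 kb, and the 4 single genes had 23, 5.75 per gene, covering 24.2 kb. Without Foxp2, whose gene body is far longer, the other 3 single genes had 10 regions, 3.33 per gene. Only the chromosome 8 cluster had fewer than these. All libraries held 5 of the 15 clustered regions (33.3%) and 11 of the 23 single ones (47.8%). Calls at clustered genes numbered 11 and 9 in the mutants, against 13 and 7 in the controls, and at single genes 15 and 16 in the mutants, against 15 and 14 in the controls. Control 1 had the most calls at the clusters and control 2 the fewest, so the spread between controls exceeded any difference between genotypes. The genes had a median of 3.5 regions each, against 1 over all protein-coding genes, and 5 of 10 had at least 4, against 12.1%.

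Paralogues from the 2 clusters differed. Foxf1 had 1 region, held by all libraries, and Foxf2 had 4, none held by all. Foxc2 had none and Foxc1 had 3. In both pairs the gene on chromosome 13 had more regions. The listed genes lie 28.0 and 8.79 kb apart on chromosome 8, against 64.8 and 175 kb on chromosome 13. The nearest-gene rule leaves less sequence to genes that lie closer, so these counts do not compare the paralogues on equal terms.

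Among 34 other forkhead genes, 22 had a region, with 85 regions in all and 39 in all libraries (45.9%). Of these 85, 1 was mutant-only, inside Foxp1 (1.18%, against 4.47% of all regions). Another 1 was control-only, 2.47 kb from Foxp4 (1.18%, against 1.07% of all regions). Both mutants were above both controls at 11 of their 39 shared regions and below at 1. Over all shared regions these shares were 29.1% and 5.62%. By rank among shared regions the counts were 5 above and 9 below, and the background shares 17.6% and 18.0%.

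The 18 genes of the hedgehog pathway list had 94 regions at 16 genes, 42 of them in all libraries (44.7%), and the ligand genes Ihh and Dhh had none. Of these regions 4 were mutant-only (4.26%, against 4.47% of all regions), inside Shh, the ligand of the palate, Ptch1, its receptor, Disp1, which releases the ligand, and Sufu, an inhibitor of the Gli factors. Control-only was 1 region (1.06%, against 1.07% of all regions), inside Boc, a co-receptor. The Shh region (chromosome 5, 28464465 to 28465396) had percentiles of 3.20 and 9.86 in the mutants. The Ptch1 region (chromosome 13, 63525657 to 63526373) had percentiles of 25.9 and 36.3 in the mutants, the Sufu region (chromosome 19, 46447245 to 46448468) 24.1 and 3.63, and the Disp1 region (chromosome 1, 183113565 to 183114119) 7.26 and 23.7. The Boc region (chromosome 16, 44542029 to 44543259) had 11.2 and 18.2 in the controls. Both mutants were above both controls at 13 of the 42 shared regions and below at 3, where 29.1% and 5.62% of all shared regions were. By rank among shared regions the counts were 9 above and 13 below, and the background shares 17.6% and 18.0%.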

How the data were processed

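Lists of ATAC-seq peaks from sorted palatal mesenchyme were used, for 2 mutant and 2 control libraries, grouped by the genotype in the labels. The authors deposited 1 list per library in 10 columns without a header, with mm10 coordinates per the submitters' processing notes. The sources used here do not give the aligner, the peak caller or its settings. Column 5 is the deposited score of a peak, the whole part of 10 times the deposited −log10 p-value in all but 5 rows. The deposited fold enrichment was read as a ratio from its place in the layout, and its background is not given. Deposited −log10 q-values and summit positions belong to single peaks, and only summits were used. These values are the authors' own. The read depth of each library is unknown, and values of single peaks carry no counting error.

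On chromosomes 1 to 19 and X, peaks were merged at 1 shared bp. Regions were given to the nearest protein-coding gene by midpoint within 100 kb, from a RefSeq table of GRCm38.p6, the build of mm10. Of the 10 genes, 5 had a promoter entry with a strand. For the others either gene end within 1 kb counted as promoter. Clusters are listed genes less than 500 kb apart. No model was fitted and no p computed.

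Genes, lists and settings were chosen with earlier results of these data known. The text names all 10 genes and every one of their regions or its range, and of the hedgehog list the genes with a genotype-specific region. Scripts ran in Python 3.11.15 with numpy 2.4.6 and pandas 2.3.3 and were tested on simulated lists. Alternatives are given in the closing section.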

Additional observations from a re-analysis of the deposited data

How the results depend on the processing

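No paired analysis was possible because the results are descriptions of peak lists and come from no test. Of 128 alternative counts and means per gene, 94 were within 1.5 times the main value and 34 were not. The median percentile difference of 5.51 over the 16 shared regions did not keep its sign, and was −1.86 by rank among shared regions. With equal peak numbers it was −3.68 over 15 shared forkhead regions, against −0.0642 over all shared regions. The upper 50% of each list gave 13 regions, of which 4 were held by every library, 1 was mutant-only and 0 control-only, with mutants above controls at 1 and below at 0. Promoter regions then numbered 5, with 2 promoter and 2 distal regions held by every library, and means per gene were 0.667 clustered and 2.25 single. With 22959 peaks from each list there were 25 regions, 0 mutant-only and 0 control-only, mutants below controls at 2, and 3.75 regions per single gene. Within 50 kb 1 region was mutant-only. With the nearest gene of any type 0 were mutant-only and single genes had 3.75 regions each. With percentiles ranked by fold enrichment in place of the score the mutants were below at 0 regions, and by rank among shared regions at 2. Without Foxp2 (chosen after seeing the data) single genes had 3.33 regions each. With 1 mismatch allowed, 3 promoters held the Gli core and 1 the forkhead motif, as did 58.6% and 38.2% of all promoters.

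With each library left out in turn, mutant-only regions numbered 2 to 6 and control-only regions 1 to 5, where a genotype left with 1 library gains calls by construction. The median difference ran from 1.01 (without control 2) to 9.98 (without control 1). Mutants were above controls at 8 to 13 regions and below at 1 to 7, of 16 to 18 regions held by every remaining library. Without control 1, 13 of 16 were above, and without control 2, 7 of 18 were below. Against a genotype with 1 library such an order arises more easily by construction, and shares over all regions are not given for these settings. Read depth is unknown and limits every call.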
